A study of Mus musculus with 11 samples.

Results

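The mitochondrial ribosomal protein genes were chosen by name alone, as the symbols that start with Mrpl or Mrps, go on with a number and may end in a letter. The rule found 78 of the 17181 genes in the deposited table, and all 78 passed the filter on low values that left 13074 genes to test. By what is known of their products, 51 encode proteins of the large subunit and 26 of the small subunit. Mrps36 matches the rule by name, but its product is a subunit of the 2-oxoglutarate dehydrogenase complex.

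Mitochondrial ribosomes translate the few messages encoded by mitochondrial DNA, all of which specify subunits of the respiratory chain and ATP synthase. Their RNA comes from mitochondrial DNA, whereas every protein is encoded in the nucleus, made in the cytosol and imported. Some of these proteins were classed as having counterparts in bacterial ribosomes (46 of the 78 genes), and others as specific to mitochondrial ribosomes (31 genes). The second class holds Mrps18a and Mrps18b, although both are related to bacterial S18.

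RNA was measured by poly(A) RNA sequencing in 11 tumours of the mouse mammary carcinoma line 4T1, injected under the skin of both flanks of NSG mice, which lack T, B and NK cells. Treatment lasted 12 days and was vehicle in 2 tumours (lactate, corn oil and DMSO), OPG-Fc in 3 (10 mg/kg, 3 doses weekly), palbociclib in 3 (30 mg/kg each day), and in 3 tumours both agents at those doses, called the combination. OPG-Fc is a decoy receptor for RANKL, the ligand of RANK, and palbociclib inhibits the cell cycle kinases CDK4 and CDK6. All samples carry the same labels for line, genotype (WT), tissue (breast) and cell type (epithelial), and vehicle samples are called untreated in their titles. The series title calls the model syngeneic, although its design names NSG hosts, and the age of the mice is not given in the sources used here. The labels do not say which tumours shared an animal. In the deposited column names, combination replicates 1 and 2 share a number, as do OPG-Fc replicates 2 and 3, and what it stands for is not stated. Each tumour was counted as 1 replicate, so the p-values cover the spread among these tumours and no more.

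Values were FPKM, fragments scaled by transcript length and library size, and the sums over all genes ranged from 576699 to 864670 per library. The read depth is unknown. Vehicle replicate 2 stood apart: Epcam, an epithelial adhesion molecule, was at 11.7 FPKM there and at 336 to 604 in the other 10 tumours. Summed lymphoid markers (13 of 14 listed genes in the table) reached 6130 FPKM in that tumour, 746 in OPG-Fc replicate 2 and 13 to 57 in the others. Among these markers, Ms4a1 was at 0 in at least 1 library. Summed skin markers were 833 and 685 FPKM in palbociclib replicates 1 and 3, against 2 to 60 elsewhere. Each comparison is therefore given from all 11 libraries and again without vehicle replicate 2. That second fit leaves 1 vehicle tumour, replicate 1, so its p-values hold no spread among vehicle tumours. In bulk tumours, fewer cells of a type and less RNA per cell cannot be told apart.

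The members were lowest in a vehicle tumour and highest in a combination tumour. The median over the 78 genes, as log2(FPKM + 1), was 4.91 and 5.19 in the vehicle tumours. In the OPG-Fc tumours it was 5.09, 5.27 and 5.18, and under palbociclib 5.20, 5.37 and 5.29. The combination tumours reached 5.47, 5.35 and 5.65. As group means these are 5.05 ± 0.19 (SD, n = 2), 5.18 ± 0.09 (n = 3), 5.29 ± 0.08 (n = 3) and 5.49 ± 0.15 (n = 3), and neighbouring groups in this order overlapped. Combination replicate 3 held the highest value of 61 members, a place it held in 17.7% of all tested genes, and vehicle replicate 1 held the lowest value of 29 members, against 11.1% of all genes. Combination replicate 3 also had the largest FPKM sum, 864670, and the largest share of FPKM from cytosolic ribosomal protein genes, 33.5% against 20.1% to 32.1% in the other tumours. The part of these features in the members' level was not tested.

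**Figure D1:**
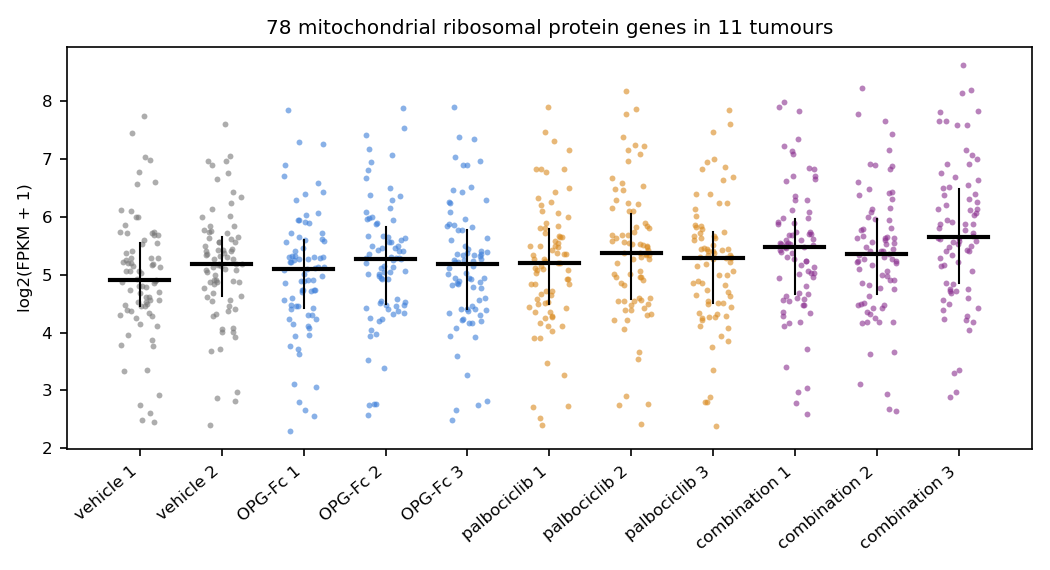
Level of each of the 78 genes (points, log2(FPKM + 1)) in each of the 11 tumours, with the median (wide line) and the middle 50% of genes (thin line). Medians run from 4.91 in vehicle replicate 1 to 5.65 in combination replicate 3, with the spread among genes far wider than the shift between tumours.

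With palbociclib averaged over both OPG-Fc states, 3 members rose and none fell by limma at an adjusted p under 0.05, where 1.38% of all genes rose and 1.45% fell. They were Mrpl12, which forms the flexible stalk that contacts translation factors, Mrpl33, a small protein of the large subunit, and Mrps6, a bacterial-type protein of the small subunit. Without vehicle replicate 2, 7 members rose and none fell, against 1.63% and 2.28% of all genes. The added genes were Mrpl15, Mrpl20, Mrpl54 and Mrps26. At an unadjusted p under 0.05, 37 members were higher, or 47.4%, against 14.2% of all genes. The members' median difference was 0.27 on the log2 scale and that of all genes -0.04, and 72 of 78 members were above zero, as were 46.2% of all genes. With the tumours that share a number averaged, no member and no other gene passed, and the members' median was 0.32.

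In the same comparison, 7 of 10 endothelial, 2 of 12 fibroblast and 2 of 10 macrophage markers fell by limma, and no adipocyte or epithelial marker passed. In the fit that leaves out vehicle replicate 2, 8 fibroblast markers fell and 1 epithelial marker rose. The median difference of 12 fibroblast markers was -0.73, and -0.97 without vehicle replicate 2, and none of the 12 was above zero in either fit. The medians of 10 endothelial markers were -0.84 and -0.67 in these fits, those of 10 adipocyte markers -1.64 and -0.88, and those of 10 macrophage markers -0.57 and -0.33. Epithelial markers (14 genes) had a median of 1.43, and of 0.35 when that library was left out. In the same fits, lymphoid markers (12 tested) had medians of -2.04 and -0.66. Skin markers (7 tested) had 2.63 and 2.57, and skeletal muscle markers (10 tested) 1.34 and 0.75. For the combination against OPG-Fc, which uses no vehicle values, the medians were -1.08 for fibroblast, -1.95 for adipocyte and 0.28 for epithelial markers, and none of the 10 endothelial markers was above zero. The part of these markers in the members' differences was not tested.

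Mrpl12 was at 38.2 and 53.2 FPKM under vehicle, 66.1, 81.0 and 77.4 under OPG-Fc, 89.7, 94.5 and 83.0 under palbociclib, and 97.3, 96.3 and 127 in the combination. All 6 palbociclib-treated tumours lay above all 5 others, and both vehicle tumours lay below every treated tumour. The averaged difference was 0.73 ± 0.13 (SE; limma adjusted p = 0.039), and 0.85 ± 0.12 (adjusted p = 0.0107) without vehicle replicate 2.

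Mrpl33 was at 108 and 107 FPKM under vehicle, 153, 169 and 166 under OPG-Fc, 157, 218 and 176 under palbociclib, and 237, 201 and 279 in the combination. Vehicle lay lowest and the combination overlapped only with palbociclib replicate 2, while palbociclib replicate 1 lay within the OPG-Fc range. Its averaged difference was 0.65 ± 0.12 (SE; limma adjusted p = 0.042).

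Mrps6 was at 52.25 and 35.5 FPKM under vehicle, 59.0, 61.2 and 55.7 under OPG-Fc, 65.8, 73.5 and 82.7 under palbociclib, and 99.4, 83.6 and 72.6 in the combination. Again all 6 palbociclib-treated tumours lay above the other 5, and palbociclib alone overlapped with the combination. The averaged difference was 0.64 ± 0.13 (SE; limma adjusted p = 0.0481). Mrps6 did not pass with quantile normalization (0.58, adjusted p = 0.0658) or with libraries rescaled to a common sum (0.39, adjusted p = 0.107), both by limma, whereas Mrpl12 and Mrpl33 passed in both.

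These calls sit near the threshold. None of the members passed when any of 8 tumours was left out in turn, where 0.0153% to 0.252% of all genes passed. These tumours were OPG-Fc replicate 1, 2 or 3, palbociclib replicate 1 or 3, and combination replicate 1, 2 or 3. The limma adjusted p for Mrpl12 was then between 0.066 and 0.124 and its difference between 0.67 and 0.77. Without palbociclib replicate 2, Mrpl12 and Mrpl33 passed, as did 1.9% of all genes. Without vehicle replicate 1, which leaves the Epcam-poor library as the only vehicle tumour, 27 members rose and 1, Mrpl36, fell, in a fit where 23.4% of all genes rose and 29.6% fell.

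**Figure D2:**
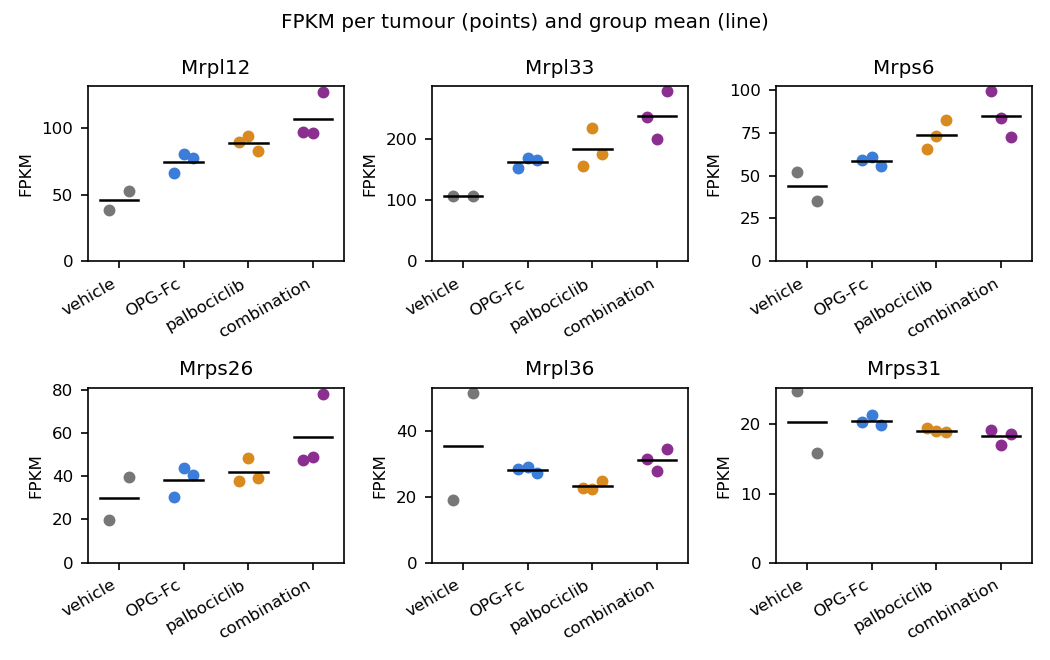
FPKM in each tumour (points) and group mean (line) for Mrpl12, Mrpl33 and Mrps6, which rose with palbociclib, and for Mrps26, Mrpl36 and Mrps31. Vehicle replicate 2 lies far above vehicle replicate 1 for Mrpl36 (51.7 against 19.2) and below it for Mrps31 (15.9 against 24.9).

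The 6 palbociclib-treated tumours lay above all 5 others in 10 members, or 12.8%, against 4.01% of all genes, and below them in none, against 3.72%. Besides Mrpl12 and Mrps6 these were Mrpl15, Mrpl22, Mrpl30, Mrpl40, Mrpl45, Mrps27, Mrps34 and Mrps35. The separation was narrow in some of them: Mrps27, a pentatricopeptide repeat protein, spanned 12.7 to 15.01 FPKM without palbociclib and 15.4 to 17.1 with it.

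Promoters of 69 members were found in RefSeq (GRCm38.p6), as 250 bases before to 50 after the start, and searched on both strands for the letters of 5 motifs, chosen after 12 longer and shorter patterns had been looked at. The NRF1 core GCATGCGC, read by the nuclear regulator of mitochondrial genes NRF1, was in 8 members, 11.6% against 3.05% of 27025 genes. The ETS letters CCGGAAG, bound by GABPA among others, were in 26, 37.7% against 9.93%, and the YY1 letters AAGATGGC in 12, 17.4% against 3.19%. The E2F letters TTCCCGC were in 5, 7.25% against 5.29%, and the E-box CACGTG in 5, 7.25% against 8.09%. E2F factors act downstream of CDK4 and CDK6. The median averaged palbociclib difference was 0.28 in the 26 members with the ETS letters and 0.21 in the 43 without, and 0.18 in the 8 with the NRF1 core against 0.26 in the 61 without. It was 0.17 with and 0.27 without the YY1 letters, 0.28 with and 0.23 without the E2F letters, and 0.19 with and 0.26 without the E-box. Without vehicle replicate 2, the E2F medians were 0.48 and 0.32, and the E-box order turned, to 0.40 with and 0.32 without.

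The last 120 bases before the start, 5′ to 3′ on the gene's strand, are shown for the 3 members that rose and for Mrpl22, which holds an ETS and an NRF1 match in this stretch. Capitals mark matches to the searched motifs. They lie at chr11:120484517-120484636, chr5:31613831-31613950, chr16:92058216-92058335 and chr11:58171544-58171663, all on the plus strand of GRCm38.p6.
Mrpl12: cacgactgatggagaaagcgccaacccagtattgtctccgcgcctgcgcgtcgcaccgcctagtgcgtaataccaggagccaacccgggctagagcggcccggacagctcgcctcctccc
Mrpl33: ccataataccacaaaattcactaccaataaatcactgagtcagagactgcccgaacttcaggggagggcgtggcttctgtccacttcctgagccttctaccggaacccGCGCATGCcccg
Mrps6: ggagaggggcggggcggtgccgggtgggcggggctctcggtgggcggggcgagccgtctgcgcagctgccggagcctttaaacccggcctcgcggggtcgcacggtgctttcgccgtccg
Mrpl22: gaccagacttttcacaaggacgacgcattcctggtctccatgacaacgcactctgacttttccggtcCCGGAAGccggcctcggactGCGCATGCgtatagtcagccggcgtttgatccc
The capitals in Mrpl33 are the NRF1 core on the reverse strand, first base at -12, and an ETS match there starts at -3 and runs past the start, so it is not shown. In Mrpl22 the ETS match starts at -53 and the NRF1 core, on the reverse strand, at -33. No searched letters were found in the window of Mrps6, and in Mrpl12 only an E2F match at 39 bases past the start.

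In the large subunit, 2 of 51 genes passed the averaged palbociclib test with all libraries (5 without vehicle replicate 2) and 47 were above zero, with a median of 0.24. Around Mrpl12, the other stalk proteins differed less: Mrpl10, to which the stalk is tied, was 0.04 ± 0.10 and Mrpl11, at the stalk base, 0.15 ± 0.10, both SE. Mrpl10 ranged from 37.7 to 50.4 FPKM outside the combination and was highest, 59.3, in combination replicate 3. Near the peptidyl transferase centre, where peptide bonds form, Mrpl3 was 0.12 ± 0.12 (SE). At the exit tunnel, Mrpl22 was 0.48 ± 0.12 and Mrpl45, which anchors the ribosome to the inner membrane, 0.40 ± 0.10, with limma adjusted p of 0.0604 and 0.0585.

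Mrpl45 was at 16.3 and 15.2 FPKM under vehicle, 15.85 to 17.4 under OPG-Fc, 19.5 to 22.7 under palbociclib and 19.6 to 25.8 in the combination. The groups with and without palbociclib did not overlap. Mrpl58, a peptidyl-tRNA hydrolase built into the large subunit, was 0.45 ± 0.15 (limma adjusted p = 0.0865), while Mrpl44, with a ribonuclease III-like fold, was 0.06 ± 0.12 and Mrpl39, related to threonyl-tRNA synthetase, 0.06 ± 0.10.

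The largest averaged difference of any member was in Mrpl54, a mitochondria-specific protein, at 0.78 ± 0.20 (limma adjusted p = 0.0584) and 0.92 ± 0.20 (adjusted p = 0.0437) without vehicle replicate 2. Its FPKM was 50.5 and 74.1 under vehicle, 64.6 to 84.8 under OPG-Fc, 84.6 to 134 under palbociclib and 112 to 192 in the combination. The palbociclib and OPG-Fc groups met, with palbociclib replicate 1 just under OPG-Fc replicate 3. Mrpl15 was 0.38 ± 0.09 (adjusted p = 0.0556) and passed without vehicle replicate 2 at 0.42 ± 0.09 (adjusted p = 0.0436), both by limma.

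Among 26 small-subunit genes, 1 passed (2 without vehicle replicate 2) and 24 were above zero, with a median of 0.28. Mrps26 was at 19.6 and 39.8 FPKM in the vehicle tumours, 30.4 to 44.0 under OPG-Fc, 37.7 to 48.6 under palbociclib and 47.6 to 78.2 in the combination. The vehicle tumours were far apart, and the difference was 0.56 ± 0.21 (limma adjusted p = 0.112) with both and 0.81 ± 0.18 (adjusted p = 0.0445) with replicate 1 only. Mrps12, part of the decoding centre, was at 13.6 and 29.0 FPKM under vehicle and did not pass (0.28 ± 0.23, limma adjusted p = 0.25).

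The 3 paralogues related to bacterial S18 were 0.26 ± 0.15 for Mrps18a, which sits in the large subunit, 0.31 ± 0.13 for Mrps18b and 0.39 ± 0.16 for Mrps18c, all SE. None passed, with limma adjusted p of 0.247, 0.136 and 0.128. Mrps30, also a large-subunit protein despite its name, was 0.14 ± 0.12. Mrps36, the gene whose product is not ribosomal, was 0.27 ± 0.13, at the members' median.

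The comparisons of single groups share tumours with each other and with the averaged ones, so they are not independent. Against vehicle, palbociclib alone gave 0 called members of 78 and 0% of all genes by limma. At an unadjusted p under 0.05, 17 members were higher, 21.8% against 13.6% of all genes. In 29 members both vehicle tumours lay below all palbociclib tumours, against 16.4% of all genes. The median was 0.15 (all genes -0.04), 0.27 without vehicle replicate 2, and turned to -0.05 when each library was rescaled to a common sum of 1000000 FPKM, which moved the median of all genes to -0.23. Mrpl12 and Mrpl33 had the smallest p among higher members, 0.96 ± 0.19 and 0.76 ± 0.18 (limma adjusted p = 0.158 for both). At the other end, Mrps2 was -0.43 ± 0.14 and Mrpl37 -0.41 ± 0.27. Mrpl37 was at 26.8 and 46.0 FPKM in the vehicle tumours and 22.4 to 28.9 under palbociclib, and its difference was -0.03 without vehicle replicate 2. Without vehicle replicate 1, 12 members rose and 5 fell, or 15.4% and 6.41%, against 23.6% and 28.4% of all genes.

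OPG-Fc alone against vehicle also gave 0 called members and 0% of all genes. At an unadjusted p under 0.05, 2 members were higher, against 7.6% of all genes, and 14 members lay wholly above vehicle, against 12.7%. Without vehicle replicate 2, 7 were higher unadjusted, 8.97% against 10.4% of all genes. The median was 0.04, equal to that of all genes, and 0.14 without vehicle replicate 2. Mrpl12 was 0.71 ± 0.19 and Mrpl33 0.59 ± 0.18 (limma adjusted p = 0.471 for both), while Mrps2 was -0.42 ± 0.14 and Mrpl10 -0.29 ± 0.15. Without vehicle replicate 1, 2 members rose and 4 fell, or 2.56% and 5.13%, against 21.1% and 19.2% of all genes.

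The combination against vehicle gave 0 called members and 0% of all genes by limma, with Mrpl12 nearest at 1.22 ± 0.19 (adjusted p = 0.0511) and Mrpl33 next at 1.14 ± 0.18 (adjusted p = 0.0554). Without vehicle replicate 2, Mrpl12 passed (1.45 ± 0.19, adjusted p = 0.0452), the only member to do so, against 0.0459% of all genes. Unadjusted, 35 members were higher, 44.9% against 15.3% of all genes, and 45 members lay wholly above both vehicle tumours, against 18% of all genes. The median was 0.43 with 72 members above zero, 0.53 without vehicle replicate 2 and 0.29 without combination replicate 3. Rescaled to a common sum it was 0.09 with 47 members above zero, where all genes had a median of -0.32 and 71 members lay above that median. With length corrected it was 0.27 with 64 above zero. Mrps2 (-0.26 ± 0.14) and Mrps31 (-0.12 ± 0.17) had the smallest p among lower members. Without vehicle replicate 1, 21 members rose and 1 fell, or 26.9% and 1.28%, against 24% and 26.8% of all genes.

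The combination against OPG-Fc alone adds palbociclib to OPG-Fc and does not use vehicle values in its difference. No member passed with all libraries, where 0.00765% of all genes rose and 0.0918% fell by limma. Unadjusted, 35 members were higher, 44.9% against 6.68% of all genes, and 51 members lay wholly above OPG-Fc, against 15.3%. The median was 0.39 (all genes -0.07) with 77 members above zero. It was 0.25 without combination replicate 3. Rescaled to a common sum it was 0.10, where all genes had a median of -0.35 and 77 members again lay above that median.

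Mrpl30 led this comparison, with 103, 123 and 124 FPKM under OPG-Fc against 161, 171 and 200 in the combination. The groups did not overlap, and the difference was 0.60 ± 0.16 (SE; limma adjusted p = 0.237). It passed in the fit without vehicle replicate 2 (same difference, adjusted p = 0.046), as the only member, against 0.987% of all genes. Leaving out that library, or vehicle replicate 1 in its place, changes here only the estimate of the spread. Mrpl22 followed at 0.59 ± 0.16 (adjusted p = 0.24 by limma), with 34.3 to 43.2 FPKM under OPG-Fc and 49.7 to 69.5 in the combination.

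The combination against palbociclib alone gave 0 called members and 0% of all genes. Unadjusted, 3 members were higher, 3.85% against 4.22% of all genes, and 15 lay wholly above palbociclib, against 13.7%, or 19.2% of members. In the fit without vehicle replicate 2, where the differences are the same and only the estimate of the spread changes, 13 members were higher unadjusted, 16.7% against 10.5% of all genes, and again none passed the adjusted threshold. The median was 0.27 with 75 members above zero and 0.14 without combination replicate 3. Mrpl35, at 5.56 to 6.40 FPKM under palbociclib and 7.20 to 9.25 in the combination, was 0.39 ± 0.14 (limma adjusted p = 0.73), and Mrpl11 was 0.32 ± 0.13. Mrps31 and Mrpl44 were at -0.06 ± 0.16 and -0.01 ± 0.16.

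Averaged over palbociclib, OPG-Fc gave 0 called members and 0% of all genes. Unadjusted, 6 members were higher, 7.69% against 7.6% of all genes, and 15 without vehicle replicate 2, 19.2% against 15.2%. Without that library, 4 members rose after adjustment (Mrpl12, Mrpl20, Mrpl36 and Mrps11), against 3.17% of all genes. Without vehicle replicate 1, 5 rose, 6.41% against 17.4% of all genes. Mrpl33 was 0.49 ± 0.12 and Mrpl12 0.48 ± 0.13 (limma adjusted p = 0.29 and 0.31), while Mrps2 was -0.13 ± 0.09 and Mrpl1 -0.08 ± 0.11.

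The interaction, which asks whether OPG-Fc changes the palbociclib difference, gave 0 called members and 0% of all genes. Unadjusted, 4 members were higher, against 2.3% of all genes, and the median was 0.18, or 0.10 without vehicle replicate 2. Without vehicle replicate 1 it was 0.33 and 12 members passed, all higher, 15.4% against 18.2% of all genes. Mrps2 was 0.58 ± 0.19 and Mrpl35 0.64 ± 0.21, and Mrpl12 and Mrpl53 were -0.46 ± 0.25 and -0.28 ± 0.23 (limma adjusted p = 0.647, 0.647, 0.647 and 0.661). Combination tumours lay above all 8 others in 8 members, against 2.61% of all genes: Mrpl11, Mrpl12, Mrpl19, Mrpl35, Mrps7, Mrps9, Mrps25 and Mrps27.

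**Figure D3:**
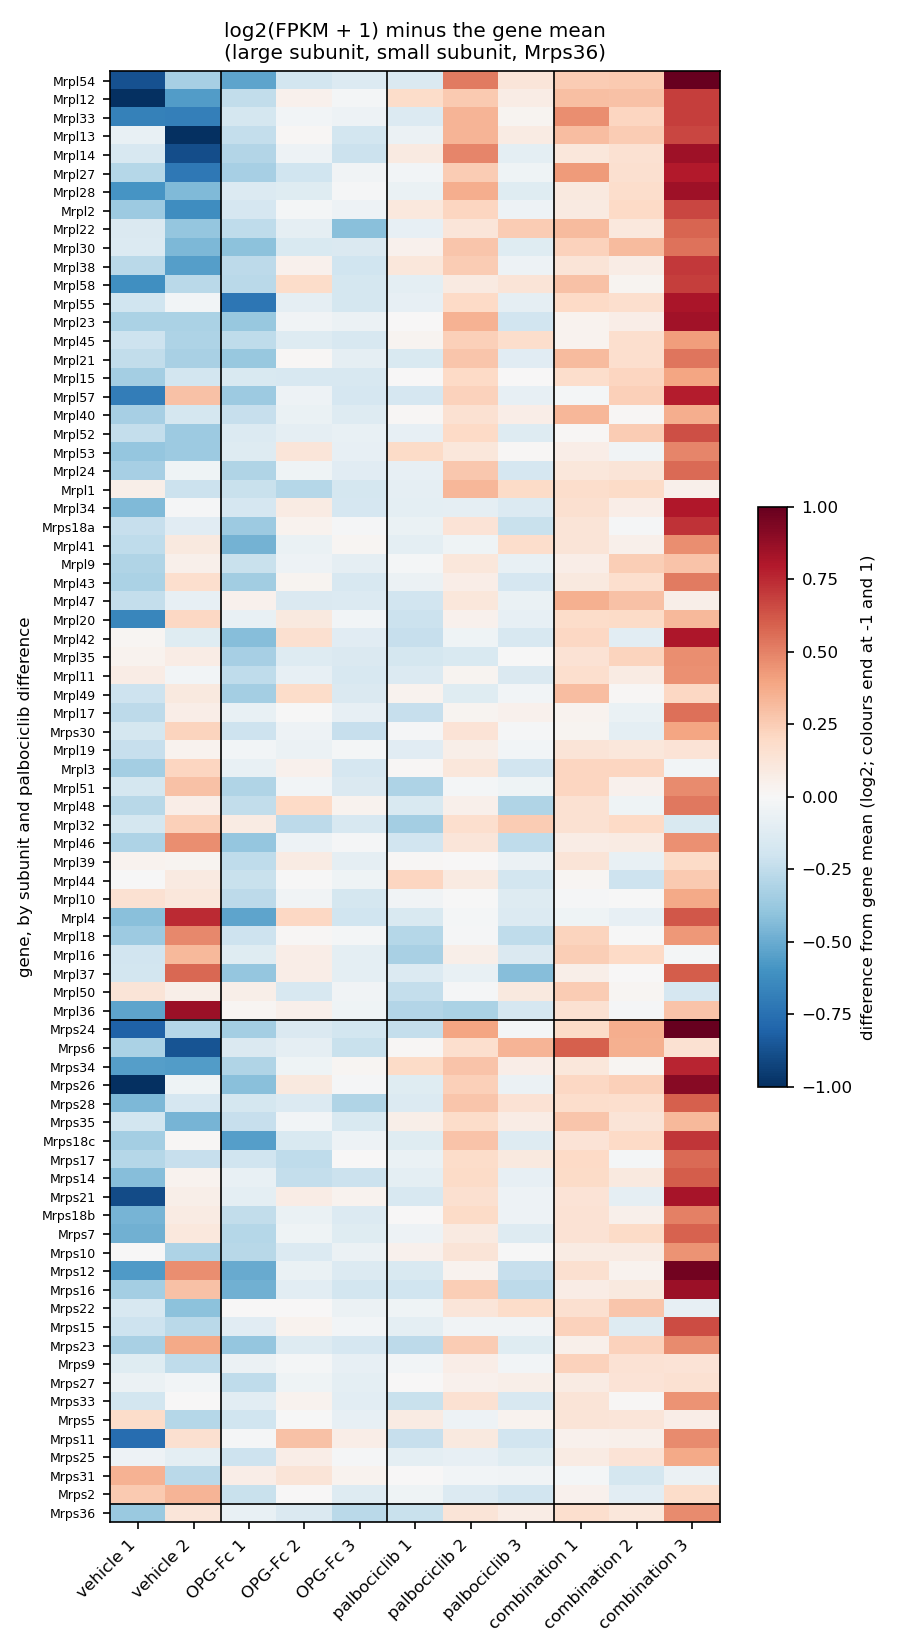
Difference of each gene in each tumour from that gene's mean (log2, colours end at -1 and 1), by subunit and then by palbociclib difference. Combination replicate 3 is high in most rows, and the vehicle tumours differ from each other in many genes.

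Members varied together across tumours. The correlation of each gene with the mean of the other members over the 11 libraries had a median of 0.82, 44 members exceeded 0.8 and 7 lay under 0.3. These are descriptions, since the libraries share tissue content and scaling. Mrps31 ran against the rest (r = -0.46), at 24.9 FPKM in vehicle replicate 1, where most members were low, and 17.1 to 19.2 in the combination. Mrpl50 (-0.23), Mrps2 and Mrpl32 (0.09 each), Mrps5 (0.24), Mrps22 (0.26) and Mrpl36 (0.29) were the others under 0.3. Mrpl36 was at 19.2 and 51.7 FPKM in the vehicle tumours and at 22.4 to 34.6 in all others, so its lowest and its highest value were both in vehicle tumours. The genes outside the set whose profile was most like the members' mean were Atp5j2, a subunit of ATP synthase (r = 0.979), Zfp707 (0.979) and Mtx1, an outer membrane import protein (0.977).

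Levels differed widely between members. On the log2(FPKM + 1) scale, which is per length, Mrpl52 was highest with a mean of 7.97, followed by Mrpl13 (7.52), Mrpl33 (7.44) and Mrpl30 (7.11). Mrps25 (2.51), Mrpl17 (2.75), Mrpl19 (2.83) and Mrpl35 (2.89) were lowest. In all, 8 members had a mean FPKM over 100 and 4 under 10.

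The members are short, with a median transcript of 1052 bases against 2109 for all genes matched, and shorter genes had higher palbociclib differences among all genes tested as well. Across genes, which are not independent replicates, Spearman's rho of length with the averaged palbociclib difference was -0.30 over the 78 members and -0.29 over 12910 genes. The shorter 39 members had a median difference of 0.35 and the longer 39 had 0.16. After each library was corrected for its length trend, the members' median was 0.17 in place of 0.27 and 61 were above zero. Only 1 member, Mrpl12, still rose (0.63, limma adjusted p = 0.0369), where 0.844% of all genes passed. For the combination against OPG-Fc the median went from 0.39 to 0.23. With GC content corrected as well, 3 passed for palbociclib averaged (Mrpl12, Mrpl33 and Mrps35), where 1.98% of all genes did. The members' median also moved with scaling: rescaled to a common sum, the averaged palbociclib median was 0.02, where that of all genes was -0.27, and 43 members were above zero while 73 were above the median of all genes. In that fit Mrpl12, Mrpl33 and Mrpl54 rose and Mrps2 fell, where 17% of all genes passed.

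**Figure D4:**
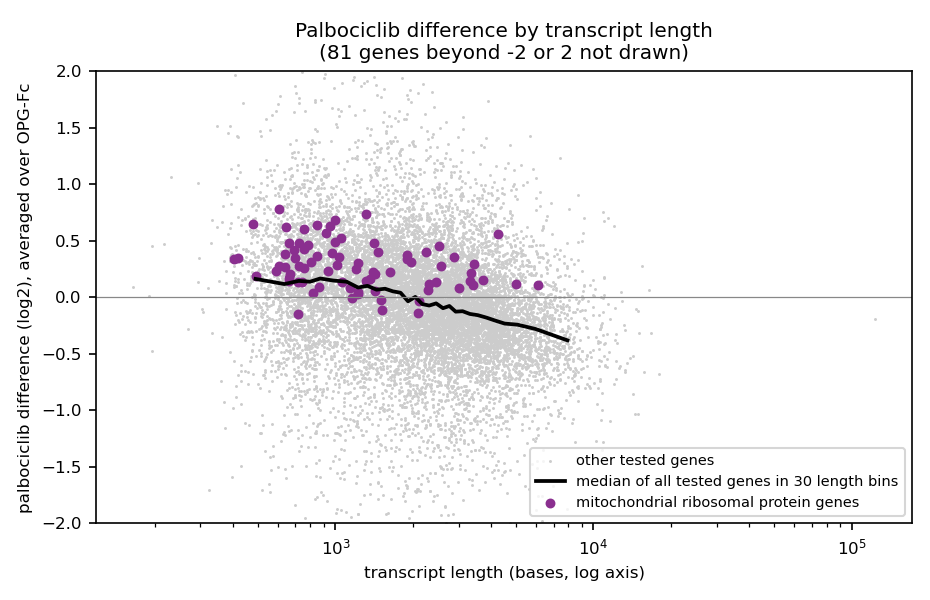
Averaged palbociclib difference (log2) of each tested gene against transcript length in bases (log axis), with the median of all genes in 30 length bins (line) and the 78 genes in colour; 81 genes beyond the axis are not drawn. The line falls with length, and most of the 78 genes lie above it.

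Genes that work with the mitochondrial ribosome were described by lists. Of 5 mitoribosomal proteins with other names, none passed, 4 were above zero and the median averaged palbociclib difference was 0.35. Dap3, a GTP-binding protein of the small subunit, was 0.37 ± 0.09 (limma adjusted p = 0.053) and Chchd1 0.55 ± 0.13 (adjusted p = 0.0541), and both passed without vehicle replicate 2 (adjusted p = 0.0408 and 0.0488). Assembly factors had a median of 0.11 over 25 genes, with none passing. Malsu1, an assembly factor of the large subunit, was 0.72 ± 0.16 (limma adjusted p = 0.0513).

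Translation factors (14 genes, median -0.05), mitochondrial tRNA synthetases (20 genes, 0.02) and genes of mitochondrial DNA replication and transcription (13 genes, 0.07) had no member past the threshold. Their medians lay near that of all genes, -0.04. In the import, chaperone and matrix list (20 genes, 0.25), Tomm22, an outer membrane import receptor, rose by 0.51 ± 0.11 (limma adjusted p = 0.0498). Among 8 tested transcription regulators of mitochondrial genes (median -0.19), Sp1 fell by 0.66 ± 0.15 on the log2 scale (adjusted p = 0.0498 by limma), a call lost without vehicle replicate 2 (adjusted p = 0.063). Nrf1 was -0.02 ± 0.13, Gabpa -0.44 ± 0.17, Esrra 0.40 ± 0.10 and Myc 0.55 ± 0.18, none past the threshold.

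Respiratory chain genes encoded in the nucleus had a median of 0.28 over 82 genes, of which 3 rose and none fell. Cytosolic ribosomal protein genes had a median of 0.66 over 78 genes, of which 29 rose and none fell. With the length correction these medians were 0.12 and 0.51, beside 0.17 for the mitochondrial ribosomal protein genes. Both lists are shorter in transcript length than the members, with medians of 648 and 688.75 bases.

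**Figure D5:**
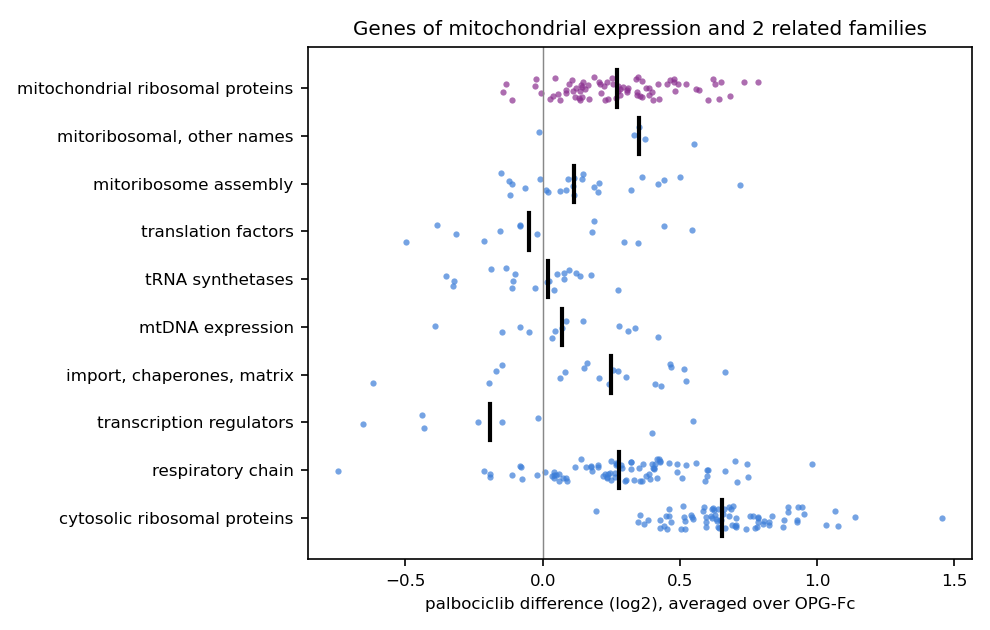
Averaged palbociclib difference (log2) of each gene (points) in the 78 genes and in 9 related lists, with list medians (bars). Medians run from -0.19 for transcription regulators to 0.66 for cytosolic ribosomal proteins, with 0.27 for the mitochondrial ribosomal proteins, which is 0.02 when libraries are rescaled to a common sum.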

How the data were processed

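The authors deposited 1 table of FPKM values (fragments scaled by transcript length and library size) for 17181 gene symbols in 11 libraries. HISAT, Bowtie2 and RSEM and the builds GRCm39 and mm39 are named, without versions or roles, per the submitters' processing notes. FPKM are given to 2 decimals (smallest value above 0, 0.01), so single reads could not be resolved.

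Values were taken as log2(FPKM + 1), a scale that understates changes of low genes, and the 13074 genes that reached an FPKM of 1 in 2 or more libraries were kept. The group means of all 11 libraries were fitted in limma (version 3.58.1, R 4.3.3) under a trended prior, and 8 comparisons were tested two-sided with Benjamini-Hochberg adjustment over all genes at 0.05. Errors of differences are standard errors. The fit was tested on simulated data. A fit without vehicle replicate 2, which leaves 1 vehicle tumour, stands beside the first.

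The members and lists were chosen with earlier results of these data known. Respiratory chain and cytosolic ribosomal lists were set by symbol pattern after values were seen. Members were named by rule: up to 5 passing members in each direction, or, with fewer than 3 passing, the 2 smallest p in each direction. Others were named for their role or profile, some after their values were seen. Transcript lengths and GC content came from an annotation of GRCm38 matched by symbol (97.8% of genes, all 78 members) and were corrected per library with a natural spline (5 degrees of freedom). Plots used matplotlib 3.10.9 and Python 3.11.15. Alternatives were the pseudocount (0.1), the filter, the scaling, the prior, library weights, only the groups compared, the replicate block, the length and GC corrections and each library left out, and 8 more combinations chosen after seeing the data.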

Additional observations from a re-analysis of the deposited data

How the results depend on the processing

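The depth of these libraries is unknown, vehicle has 2 tumours that differ in tissue content, and tumours may share animals, so small differences between groups could not be resolved. Changes of direction among named members were few. Mrps31 in the combination against vehicle was -0.12, ran from -0.43 to 0.19 as libraries were left out and turned at 0.19 without vehicle replicate 1. Mrpl44 in the combination against palbociclib was -0.13 to 0.10 as libraries were left out, with 0.07, 0.01 and 0.10 without palbociclib replicate 1, palbociclib replicate 2 and combination replicate 2, and 0.05 with libraries that share a number averaged. Mrpl1 for OPG-Fc averaged over palbociclib was 0.08 with length and GC corrected and 0.02 with vehicle replicate 2 also left out. None of these passed.

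Leaving out each library in turn gave 0 to 28 called members for palbociclib averaged over OPG-Fc (median 0.17 to 0.35), 0 to 17 for palbociclib against vehicle (0.00 to 0.27), 0 to 6 for OPG-Fc against vehicle (-0.07 to 0.14) and 0 to 22 for the combination against vehicle (0.29 to 0.53). It gave 0 to 1 for the combination against OPG-Fc (0.25 to 0.47), 0 for the combination against palbociclib (0.14 to 0.34), 0 to 5 for OPG-Fc averaged over palbociclib (0.08 to 0.21) and 0 to 12 for the interaction (0.10 to 0.33). The highest counts came without vehicle replicate 1, a fit that leaves 1 vehicle tumour, and whether they are particular to the members was not tested. Both directions together, a larger share of all genes than of members passed there in every comparison with a called member. Among higher genes alone, the members' share was the larger for palbociclib averaged and for the combination against vehicle and against OPG-Fc. It was the smaller in the others with a called member.

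For palbociclib averaged over OPG-Fc, 5 members passed with an FPKM of at least 5, where 3.68% of all genes did. With the length correction 1 passed, against 0.844% of all genes. With array weights, whose estimate did not converge, 0 members and 0% of all genes passed. With array weights, 40 members passed for the combination against OPG-Fc (26.7% of all genes did) and 1 for the combination against palbociclib (5.13% of all genes), all higher. With an FPKM of at least 5, 2 passed for the combination against vehicle, where 0.87% of all genes did. The length correction gave medians of 0.27 (combination against vehicle) and 0.23 (combination against OPG-Fc, 0.25 with GC). Rescaled to a common sum, medians were -0.05 for palbociclib and 0.09 for the combination, both against vehicle, 0.13 and 0.10 for the combination against palbociclib and against OPG-Fc, and 0.02 for palbociclib averaged. Apart from the rescaling itself and the fewer genes of the filter, the cause was not tested.

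The replicate numbers did not pair the samples: 15 pairs of libraries with the same number had correlations of their deviations from -0.41 to 0.53, 5 over 0.1, and 3 of 11 libraries correlated best with their own number. With the replicate block, 0 members passed for palbociclib averaged over OPG-Fc (median 0.24), where 0.0535% of all genes did.

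The following were chosen after seeing the data. Those of these fits that leave 1 tumour in a group hold no spread within that group. For them mostly medians are given, and any counts are descriptions only. With vehicle replicate 2 left out and length corrected, medians were 0.18 for palbociclib and 0.35 for the combination, both against vehicle. They were 0.12 for OPG-Fc averaged and 0.23 for the combination against OPG-Fc. With that library left out and length and GC corrected, counts were 1, 2 and 1 for palbociclib, OPG-Fc and the combination against vehicle. Of all genes, 0.0387%, 0.503% and 0.263% passed there. In the same fit, 4 members passed for the combination against OPG-Fc (median 0.25), where 5.17% of all genes did. For palbociclib averaged 10 members passed, against 5.11% of all genes, and for OPG-Fc averaged 3, against 5.44%. The interaction median was 0.03. With it left out and quantile normalization, medians for the combination were 0.44 against vehicle and 0.33 against OPG-Fc. They were 0.31 for palbociclib averaged and 0.15 for OPG-Fc averaged. With it left out and libraries rescaled to a common sum, medians for the combination were 0.15, 0.13 and 0.10 against vehicle, palbociclib and OPG-Fc. They were 0.08 for palbociclib averaged (all genes -0.30), 0.10 for OPG-Fc averaged and 0.03 for the interaction. Without palbociclib replicates 1 and 3, medians were 0.34 for palbociclib averaged, 0.10 for the combination against palbociclib and 0.05 for the interaction. Without vehicle replicate 2 and OPG-Fc replicate 2, the median for palbociclib averaged was 0.39. Without vehicle replicate 2 and combination replicate 3, 1 member passed in each comparison with vehicle. Of all genes, 0.0535% passed for palbociclib, 0.39% for OPG-Fc and 0.184% for the combination. In the same fit, 1 member passed for the combination against OPG-Fc (median 0.25), where 3.01% of all genes did. For palbociclib averaged 13 members passed, against 5.74% of all genes, and for OPG-Fc averaged 5, against 3.53%. Medians were 0.14 for the combination against palbociclib and -0.02 for the interaction. With libraries that share a number averaged, 0 members and 0% of all genes passed for palbociclib averaged.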
